A study of Mus musculus with 33 samples.

Results

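The levels of 6 epithelial junction and trafficking genes were followed through 33 libraries of sorted mouse cells: the claudin genes Cldn3, Cldn4 and Cldn7, the adhesion genes Epcam and Cdh1, and the small GTPase gene Rab25. They were chosen by name on their levels in these same libraries, which had been seen to differ, and 6 of 6 were among the 15273 genes measured. The libraries were made by bulk MARS-seq, a 3′-end method in which each captured molecule carries a unique molecular identifier (UMI), and the mice were C57BL/6. Wild type thymic epithelial cells (TEC, the stroma that guides T cell development) gave 2 libraries at embryonic day 15 (E15), 2 at embryonic day 17 (E17) and 2 each from day 6 populations titled mTEC1, mTEC2 and mTEC4. Wild type mice of 6 weeks gave 20 libraries, 4 each titled cTEC and mTEC1 to mTEC4 (in this field, cortical and medullary TEC). The other 3 libraries held the cells labelled HFC, trypsinized from dorsal skin of 4-week mice of the genotype Foxn1.EGFP positive and sorted. The sources used here do not give the surface proteins of the sorts, so whether Epcam protein was one of them is unknown.

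Claudins are membrane proteins that polymerize into the strands of tight junctions, the apical seal between epithelial cells, and which claudins a cell makes sets which ions and molecules pass. Epcam is an adhesion protein of simple and progenitor epithelia that binds and stabilizes claudin 7. Cdh1 encodes E-cadherin, the calcium-dependent adhesion protein of adherens junctions, and Rab25 encodes an epithelial member of the Rab11 family, GTPases of the recycling endosome that return membrane proteins to the cell surface. In the thymus, Epcam marks epithelium in general, and claudin 3 and claudin 4 are known surface markers of medullary lineage cells.

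The genes lie on 5 chromosomes of GRCm38 (GENCODE M21). Cldn3 (ENSMUSG00000070473.4, chr5:134986214-134987472, plus strand) and Cldn4 (ENSMUSG00000047501.3, chr5:134945119-134946934, minus strand) are neighbours with 39280 bases between their starts and 0 annotated genes in between. The Cldn3 locus overlaps the antisense gene Wbscr25 by 40 bases, and the sources used here do not say whether counting used the strand. Cldn7 lies at chr11:69964779-69967885, Epcam at chr17:87635979-87651129, Cdh1 at chr8:106603351-106670246 and Rab25 at chr3:88542029-88548300. The 250 bases before the RefSeq transcript start (GRCm38.p6) are shown for 5 of the 6 genes because several of these genes moved together in the libraries. They were searched on both strands for 4 motifs: the E-box CACCTG bound by Snail and Zeb repressors, the grainyhead-like motif AACCNGTT, the AP-1 motif TGACTCA and the cyclic AMP response element TGACGTCA. Capitals mark every match.
Cldn3: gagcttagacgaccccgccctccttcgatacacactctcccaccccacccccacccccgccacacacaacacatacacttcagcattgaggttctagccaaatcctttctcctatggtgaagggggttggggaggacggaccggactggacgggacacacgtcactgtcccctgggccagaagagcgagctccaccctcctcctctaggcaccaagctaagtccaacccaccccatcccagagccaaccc
Cldn4: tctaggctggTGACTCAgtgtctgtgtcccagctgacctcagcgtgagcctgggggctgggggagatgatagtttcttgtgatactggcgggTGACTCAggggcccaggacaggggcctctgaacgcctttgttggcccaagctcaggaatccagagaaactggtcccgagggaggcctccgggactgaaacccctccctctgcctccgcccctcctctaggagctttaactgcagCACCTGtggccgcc
Cldn7: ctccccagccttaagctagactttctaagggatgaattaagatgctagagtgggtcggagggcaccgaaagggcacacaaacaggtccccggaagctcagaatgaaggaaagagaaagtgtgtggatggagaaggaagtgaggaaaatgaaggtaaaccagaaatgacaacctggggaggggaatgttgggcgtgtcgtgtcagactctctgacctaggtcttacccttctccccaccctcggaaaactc
Rab25: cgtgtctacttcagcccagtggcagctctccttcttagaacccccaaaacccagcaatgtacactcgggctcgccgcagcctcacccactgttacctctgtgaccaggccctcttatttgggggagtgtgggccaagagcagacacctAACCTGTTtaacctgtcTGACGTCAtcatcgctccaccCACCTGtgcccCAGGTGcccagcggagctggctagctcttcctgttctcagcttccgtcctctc
Epcam: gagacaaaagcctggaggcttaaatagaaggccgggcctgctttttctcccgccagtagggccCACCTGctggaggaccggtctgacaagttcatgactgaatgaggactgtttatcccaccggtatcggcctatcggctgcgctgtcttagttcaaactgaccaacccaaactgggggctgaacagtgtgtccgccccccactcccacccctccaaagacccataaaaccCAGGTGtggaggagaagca
These windows are chr5:134985964-134986213 on the plus strand, chr5:134946935-134947184 on the minus strand, chr11:69964529-69964778 on the plus strand, chr3:88548280-88548529 on the minus strand and chr17:87635729-87635978 on the plus strand.

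The windows shown for Cldn3 and Cldn7 held no match to any of the 4 motifs. The Rab25 window held 2 E-boxes, at -64 and -53 from the start, with a grainyhead-like match at -102 and a cyclic AMP response element at -85. The Cldn4 window held 1 E-box at -14 and 2 AP-1 matches at -240 and -158, and the Epcam window held 2 E-boxes at -187 and -19. Among 32851 windows of this length, 17.2% held the E-box, 1.79% the grainyhead-like motif, 4.46% the AP-1 motif and 1.55% the cyclic AMP response element. A match describes the letters of the window and nothing about binding. The window of a second annotated start of Cldn7 held 2 E-boxes, at -97 and -57, and a cyclic AMP response element at -38, and is not shown because 221 of its 250 bases are annotated as untranslated sequence.

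Library totals ran from 98670 to 1732688 UMIs, with the embryonic libraries at 1007370 or more, and levels are given in CPM, UMI counts scaled to a library total of 1000000. For a gene at 0 the limit is 3 UMIs, which is 1.73 to 30.4 CPM depending on the library and covers counting error only. At 6 weeks the titles went against the markers: the cortical protease gene Prss16, the basal keratin gene Krt5, the autoimmune regulator gene Aire, the hormone gene Pth and the tuft cell channel gene Trpm5 each exceeded a threshold in 4 libraries, and those 4 carried different titles. Prss16 was above 0.2% of UMIs in the libraries titled 196 mTEC1 to mTEC4, with the lowest at 0.345% and the next library below at 0.0469%. Krt5 was above 0.25% in 4 of the libraries titled 189 (0.347% against 0.154% for the next below), Aire above 0.1% in 4 (0.1998% against 0.0216%), Pth above 0.1% in 4 (0.389% against 0.00230%) and Trpm5 above 0.1% in 4 (0.169% against 0.00902%). Each of the 20 libraries passed 1 of these thresholds, and they are called below by that marker. In the deposited order the 4 libraries of each marker were consecutive. The Aire, Pth and Trpm5 sets each held libraries of more than 1 title number, so the sets do not follow the title numbers. Since the sets come from measured levels, values are given per library without a test between sets. In bulk samples fewer cells of a type and less RNA per cell cannot be told apart.

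Cldn3 was high in the Aire, Pth and Trpm5 libraries and low in the Prss16 and Krt5 libraries at 6 weeks. It stood at 334, 328, 303 and 325 CPM in the Aire libraries, at 389, 418, 303 and 547 CPM in the Pth libraries and at 415, 358, 435 and 473 CPM in the Trpm5 libraries. It stood at 45.4, 31.4, 91.6 and 82.2 CPM in the Krt5 libraries and at 18.8, 4.12, 0 and 53.3 CPM in the Prss16 libraries. The lowest of the first 12 libraries, at 303 CPM, was thus above the highest of the other 8, at 91.6 CPM, while the Krt5 and Prss16 libraries overlapped.

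Cldn4, the neighbour of Cldn3, separated the Prss16 libraries from all others. It was measured at 6.85, 7.21, 9.18 and 3.55 CPM in the Prss16 libraries and at 49.9, 39.2, 118 and 100.4 CPM in the Krt5 libraries. It was measured at 349.7, 699, 373 and 544 CPM in the Aire libraries, at 257, 411, 422 and 588 CPM in the Pth libraries and at 326, 371, 344 and 345 CPM in the Trpm5 libraries. The Krt5 libraries were therefore intermediate, and the ranges of the Aire, Pth and Trpm5 libraries overlapped.

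Cldn7 followed the same 3 levels with a different order at the top. It reached 621, 656, 673 and 691 CPM in the Aire libraries and 559.6, 721, 791 and 658 CPM in the Trpm5 libraries, against 571, 357, 297 and 385 CPM in the Pth libraries. It was 46.9, 53.6, 102 and 82.2 CPM in the Krt5 libraries and 1.71, 21.6, 4.59 and 10.7 CPM in the Prss16 libraries. The 4 Aire libraries lay above the 4 Pth libraries without overlap, which was not so for Cldn3 or Cldn4.

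Rab25 was set apart from the claudins by the Trpm5 libraries, where it stood at 845, 886, 846 and 988 CPM. The next libraries in order were the Pth libraries at 303, 283, 274 and 213 CPM and the Aire libraries at 259.9, 219.7, 311 and 182 CPM, which overlapped. The Krt5 libraries held 31.8, 43.1, 80.3 and 51.1 CPM and the Prss16 libraries 3.42, 9.27, 0 and 14.2 CPM. No Trpm5 library overlapped any other 6-week library for this gene.

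**Figure D1:**
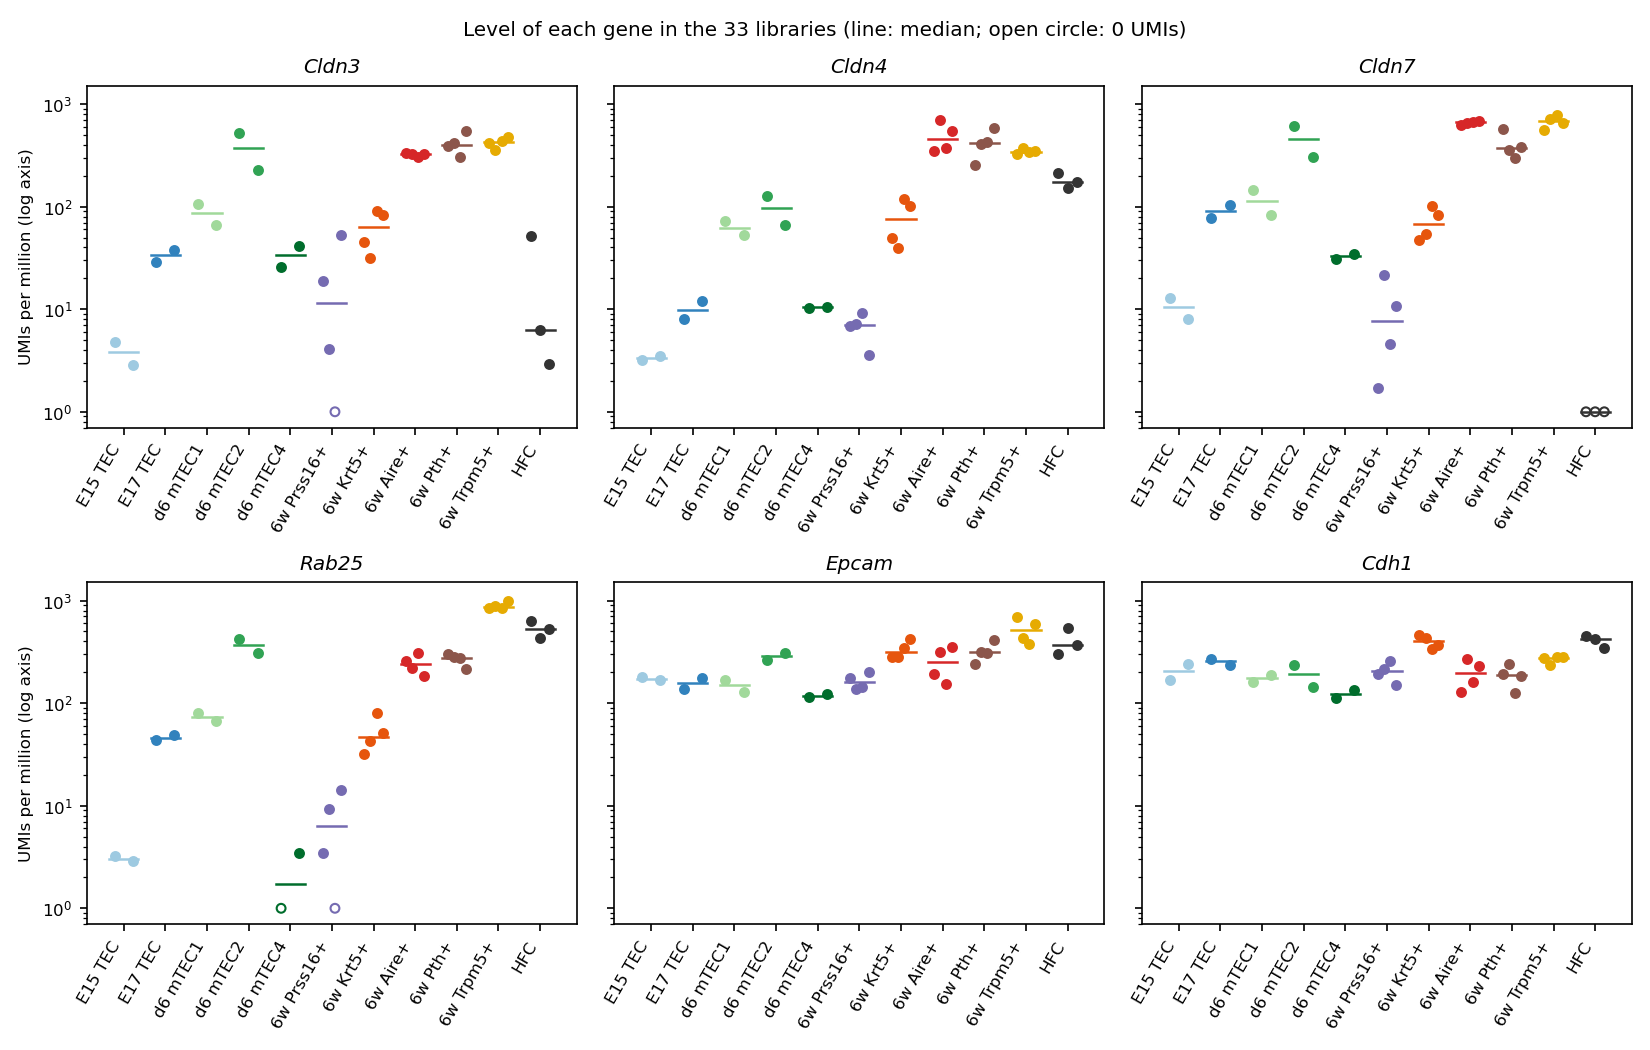
Level of each gene in CPM on a log axis, 1 point per library, by embryonic, day 6, 6-week marker and HFC set, with a line at the median of each set and open circles, drawn at 1, for libraries with 0 UMIs. The claudins and Rab25 have their highest libraries between 547 and 988 CPM and their lowest at 0 or 3.20 CPM, and Epcam and Cdh1 stay between 111 and 692 CPM.

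Epcam and Cdh1 varied far less. Epcam ranged from 114 to 692 CPM over the 33 libraries, a 6.06-fold range, and Cdh1 from 111 to 457 CPM, a 4.10-fold range, against 218-fold for Cldn4, which also had UMIs in every library. At 6 weeks Epcam was 692, 430.1, 375 and 592 CPM in the Trpm5 libraries, 283, 281, 342 and 422 CPM in the Krt5 libraries and 176, 137, 142 and 199 CPM in the Prss16 libraries. The Krt5 libraries overlapped the Trpm5 libraries, and the Prss16 libraries overlapped the Aire libraries, which were at 191, 313, 153 and 349 CPM. The Pth libraries were at 240.0, 317, 309 and 416 CPM.

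Cdh1 had its own order, with the Krt5 libraries highest among the 6-week sets at 457, 434, 337 and 371 CPM. The Trpm5 libraries held 275, 235, 283 and 279 CPM and the Prss16 libraries 192, 217, 257 and 149 CPM. The Aire libraries held 129, 267, 161 and 231 CPM and the Pth libraries 194, 243, 125 and 182 CPM. Only the Krt5 libraries stood clear of the other 16, and the other 4 sets overlapped one another.

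Counted over the 6 genes, 3 (Cldn4, Cldn7 and Rab25) were lower in all 4 Prss16 libraries than in any of the other 16, where 2.5% of 13610 genes were. A split of the 8 Prss16 and Krt5 libraries from the other 12, chosen after the values were seen, separated 4 genes (Cldn3, Cldn4, Cldn7 and Rab25), against 1.06% of genes. Rab25 alone of the 6 was higher in all Trpm5 libraries than elsewhere (5.55% of genes were), and Cdh1 alone in all Krt5 libraries (1.2%). None of the 6 set the Aire libraries (5.6% of genes) or the Pth libraries (1.14%) above the rest. These shares describe the genes' choice, which used the same levels, and support nothing.

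Other junction genes moved beside them. Of 21 genes of tight junction strands and scaffolds, F11r (a junctional adhesion molecule), Tjp3 (a ZO scaffold protein) and Lsr (a protein of tricellular junctions) were lower in all Prss16 libraries than in the other 16. Tjp3 was 3.55 to 6.85 CPM there, 26.2 to 71.5 CPM in the Krt5 libraries and 114 to 310.2 CPM in the other 12. Of 7 genes listed around Epcam and the matriptase protease system, 4 had this pattern, among them the matriptase inhibitors Spint1 and Spint2 and the tetraspanin Tspan8. Spint2 was 129 to 244 CPM in the Prss16 libraries and 341 to 876 CPM in the other 16. Of 12 other claudins measured at 6 weeks, 0 were lower in all Prss16 libraries, and Cldn13 alone was higher in all Aire libraries, at 164 to 248 CPM against at most 51.4 CPM elsewhere.

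Among transcription regulators of epithelia, Elf3 shared the split of the 8 libraries from the 12, with 4.59 to 21.3 CPM in the Prss16 libraries, 20.9 to 76.7 CPM in the Krt5 libraries and 625 to 790.2 CPM in the Trpm5 libraries. Crb3, an apical polarity protein, also showed that split, and both genes were highest in the Trpm5 libraries, as were Ehf, Klf5, the clathrin adaptor subunit Ap1m2 and the N-cadherin gene Cdh2. Cdh2 was 76.2 to 154 CPM in the Trpm5 libraries and at most 20.3 CPM in the other 6-week libraries. Of 14 genes of desmosomes, Pkp4 was highest in the Krt5 libraries, Ppl in the Pth libraries, and Dsg1a was lowest in the Prss16 libraries. The regulators Grhl3, Ehf and Klf5 and the adhesion gene Nectin2 were also lower in all Prss16 libraries than in the other 16, and Nectin4 and Prss8 were highest in the Pth libraries.

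The sets also differed in summed markers of other cell types. Summed myeloid markers (8 of 8 genes with UMIs) were 2274 to 2864 CPM in the Aire libraries and 32.1 to 167 CPM in the Prss16 libraries, where Itgax was at 0. Nearly all of the sum in the Aire libraries was Laptm5 (median 1351 CPM) and Lyz2 (median 1082 CPM). Tyrobp had a median of 40.6 CPM there and 90.8 CPM in the Pth libraries, and Itgam 8.27 and 14.5 CPM. The medians of Fcer1g (77.9 and 24.4 CPM), Csf1r (41.9 and 2.86 CPM), Adgre1 (14.4 and 5.71 CPM) and Itgax (6.12 and 5.07 CPM) were higher in the Aire libraries. Summed mesenchymal markers were 868 to 4105 CPM in the Pth libraries and 977 to 1736 CPM in the Prss16 libraries (Col1a1 and Pdgfra at 0), and 49.1 to 117 CPM in the Trpm5 libraries (Lum at 0). Summed thymocyte markers (11 of 12 in the table) were 184 to 625 CPM in the Prss16 libraries and 20.1 to 98.4 CPM in the Krt5 libraries, where Ptcra was at 0. Their part in the levels of the 6 genes was not tested.

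The genes closest in pattern were found by Spearman correlation over the 20 libraries of 6 weeks, among 9853 genes with a mean of at least 10 CPM. These libraries fall into marker sets, so a correlation describes them and carries no p. For Rab25 the closest were Atp2a3 (rho 0.96), Prr15l (0.95) and Espn (0.95), and Espn, which encodes an actin-bundling protein of microvilli and stereocilia, had a median of 1229 CPM in the Trpm5 libraries and 155 CPM in the Pth libraries. For Cldn3 they were Fetub (0.94), Kcnj11 (0.94) and Dusp18 (0.93), for Cldn4 Nfatc2 (0.93), Grasp (0.92) and Ugt1a6b (0.91), and for Cldn7 Elf4 (0.94), Cdhr5 (0.94) and Dscaml1 (0.93). For Epcam they were Vasp (0.91), Spint2 (0.90) and H2-D1 (0.86), and for Cdh1 Ube2ql1 (0.85), Svil (0.85) and Nfat5 (0.84). Among the 6 genes, rho was 0.86 for Cldn7 with Rab25, 0.84 for Cldn3 with Rab25 and 0.69 for the neighbours Cldn3 and Cldn4. Over all 33 libraries the closest genes were Elf3 for Cldn3 (0.91), Dscaml1 for Cldn7 (0.95), Ckmt1 for Rab25 (0.94), Serpinb2 for Cldn4 (0.93), Erbb3 for Epcam (0.83) and Ptprf for Cdh1 (0.82). Cdh1 had rho between -0.22 and -0.03 with the 3 claudins and Rab25 over the 20 libraries of 6 weeks, and of -0.10 with Cldn3, 0.07 with Cldn4, -0.17 with Cldn7 and 0.27 with Rab25 over all 33.

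**Figure D2:**
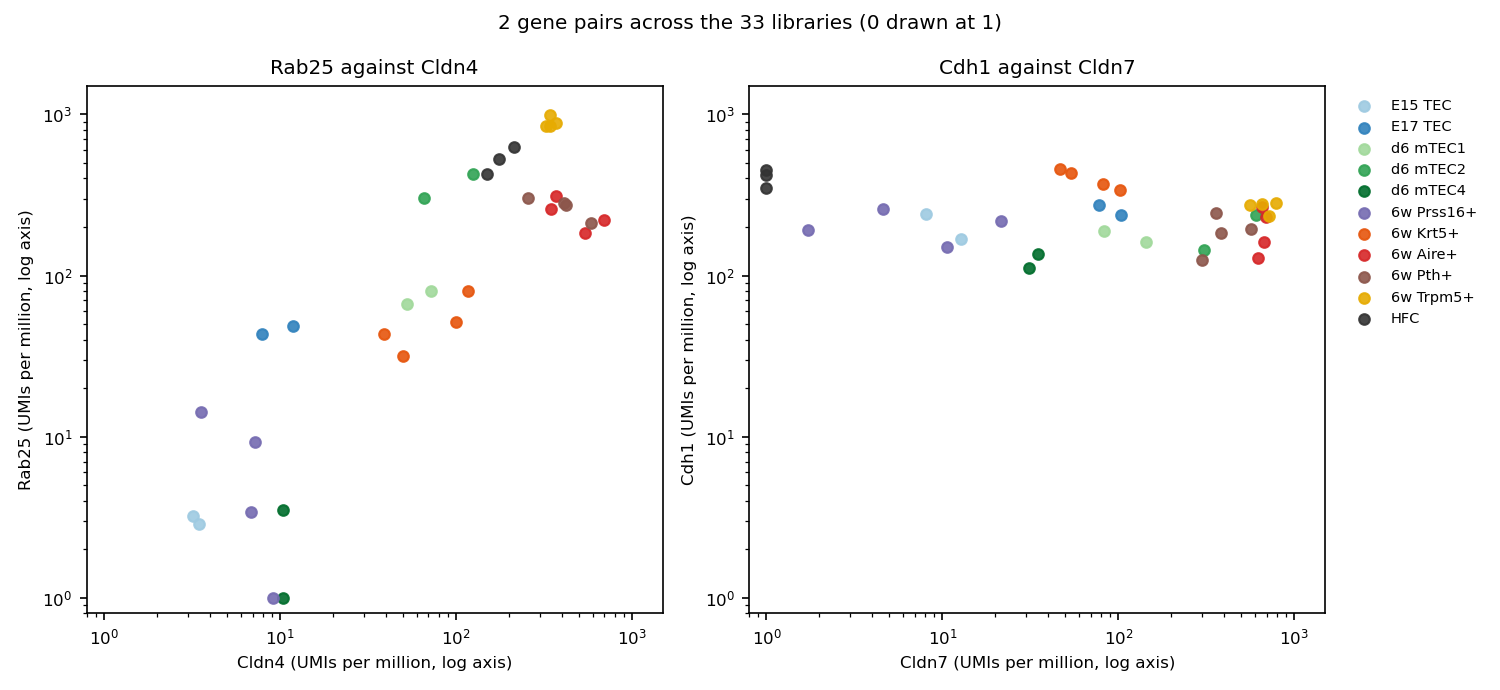
Rab25 against Cldn4 and Cdh1 against Cldn7 in CPM on log axes, 1 point per library coloured by set, with values of 0 drawn at 1. Rab25 and Cldn4 are both low in E15, day 6 mTEC4 and Prss16 libraries and both high in Trpm5 libraries, and Cdh1 lies between 111 and 457 CPM at every level of Cldn7.

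In the embryonic thymus Cldn3, Cldn7 and Rab25 were higher at E17 than at E15. Cldn7 was 12.8 and 8.08 CPM at E15 and 77.8 and 104 CPM at E17. Cldn3 was 4.81 and 2.89 CPM, then 29.2 and 37.7 CPM, and Rab25 was 3.20 and 2.89 CPM, then 43.3 and 48.6 CPM. For these 3 genes the ages did not overlap. On the log2 scale used for testing (level scaled to the median library total, plus 1) the differences of E17 minus E15 were 2.94 ± 0.44 (SE, n = 2 and 2; limma adjusted p = 0.0173) for Cldn7, 3.31 ± 0.57 (adjusted p = 0.0295) for Rab25 and 2.66 ± 0.51 (adjusted p = 0.0443) for Cldn3. The labels do not say whether libraries came from separate animals, so p-values here measure only the spread between libraries. For E17 against E15 that spread came from the embryonic and day 6 libraries fitted together. Higher at E17 were 3 of the 6 genes and 0.745% of 11543 genes (0.762% passed in either direction).

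Cldn4 was 3.20 and 3.46 CPM at E15 and 7.96 and 11.9 CPM at E17, without overlap, and did not pass (1.18 ± 0.56, adjusted p = 0.956). Epcam was 179 and 167 CPM, then 139 and 178 CPM, and Cdh1 was 168 and 240.1 CPM, then 272 and 237 CPM, both overlapping between ages and neither past the threshold. Each of the 3 calls was lost when any 1 of the 4 libraries was left out, with adjusted p from 0.0994 to 0.577. The Cldn3 call was also lost with a pseudocount of 5 (adjusted p = 0.160), without the filter (0.0639) and with median of ratios scaling (0.0556), and the Rab25 call with a pseudocount of 0.5 (0.0679). Of 8 lists of other junction, trafficking and regulatory genes, none had a member past limma's adjusted threshold. An unadjusted limma p under 0.05 was found for 6 of their 91 tested genes, among them Tjp3, Spint2, Cd9, Elf3 and Vim. The share of all genes under that p was not counted, so these 6 are no result about the lists. Summed myeloid markers were 13.9 to 19.2 CPM at E15 and 227 to 264 CPM at E17, a difference carried by Laptm5 (3.46 to 8.81 CPM, then 189.6 to 194 CPM) and Lyz2 (2.31 to 4.01 CPM, then 26.8 to 50.4 CPM). The myeloid genes Tyrobp and Fcer1g were at most 5.30 and 5.96 CPM at E17. The sum of medullary markers was 617 to 752 CPM at E15 and 1219 to 1246 CPM at E17. Among them Fezf2 (3.64), Cd52 (3.23), Aire (3.16) and Spib (1.89) were higher at E17 (limma adjusted p 0.00373 to 0.0478). Krt5 (-0.61) was lower and did not pass. The part of the myeloid and medullary genes in the differences was not tested.

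At day 6 the 3 titled populations differed in the claudins and Rab25 more than in Epcam and Cdh1. Cldn3 was 520.1 and 227 CPM in mTEC2, 107 and 66.6 CPM in mTEC1 and 25.9 and 41.8 CPM in mTEC4. Cldn7 was 609 and 308 CPM in mTEC2, 144 and 82.4 CPM in mTEC1 and 31.1 and 34.8 CPM in mTEC4. Rab25 was 425 and 305 CPM in mTEC2, 79.9 and 66.6 CPM in mTEC1, and 0 and 3.48 CPM in mTEC4. For these 3 genes the order mTEC2, mTEC1, mTEC4 held without overlap.

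Against the mean of the other 2 populations, mTEC2 was higher by 2.66 ± 0.44 (log2, n = 2 and 4; limma adjusted p = 0.00583) for Cldn3, 2.81 ± 0.38 (adjusted p = 0.00251) for Cldn7 and 4.59 ± 0.50 (adjusted p = 0.000866) for Rab25. Epcam, at 262 and 311 CPM in mTEC2 and 114 to 169 CPM in the other 4 libraries, was also higher there (1.10 ± 0.24, adjusted p = 0.0189), and this call was lost without mTEC1 replicate 2 (adjusted p = 0.0594) or mTEC2 replicate 2 (0.0560). Cldn4, at 126 and 65.8 CPM in mTEC2 and 72.1 and 52.6 CPM in mTEC1, narrowly missed the threshold (1.74 ± 0.49, adjusted p = 0.0551). Cdh1 was 237 and 143 CPM in mTEC2, 161 and 188 CPM in mTEC1 and 111 and 136 CPM in mTEC4, with mTEC1 and mTEC2 overlapping, and it did not pass (0.33 ± 0.27, adjusted p = 0.487). Higher in mTEC2 were 4 of the 6 genes and 4.34% of all genes tested, and 3.5% of genes were lower (7.84% in all).

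In mTEC4 the same scale gave -5.76 ± 0.50 (n = 2 and 4; limma adjusted p = 0.00218) for Rab25, -2.66 ± 0.38 (adjusted p = 0.0109) for Cldn7, -2.66 ± 0.49 (adjusted p = 0.0234) for Cldn4 and -2.31 ± 0.44 (adjusted p = 0.0262) for Cldn3. Cldn4 was 10.4 CPM in both mTEC4 libraries. Lower there were 4 of the 6 genes and 2.32% of all genes, and 0.45% of genes were higher (2.77% in all). The Cldn3 call was lost on leaving out either library of mTEC4 or of mTEC1 (adjusted p 0.0604 to 0.0850), and the Cldn4 call on leaving out mTEC4 replicate 2 or either mTEC1 library (0.0644 to 0.0799). The 3 comparisons share their libraries, so these are 2 views of 1 order. In mTEC1 against the other 2, 0 of the 6 genes passed (3.13% of genes did, 2.02% higher and 1.11% lower), with Rab25 at 1.17 ± 0.50 (adjusted p = 0.272), and 0 passed in edgeR or DESeq2 as well. By limma's unadjusted p, Rab25 alone of the 6 was under 0.05 there, at 0.0389.

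Among related genes at day 6, Elf3 was higher in mTEC2 (3.86 ± 0.55, adjusted p = 0.00313), as were Klf5 (3.88), Tjp3 (2.39), Lsr (1.53), Marveld3, a protein of tight junction strands (2.73), the desmosomal genes Pkp1 (2.08) and Evpl (1.96), and Spint2 (0.80). Lower in mTEC2 were the basal regulator Trp63 (-2.83), the desmosomal cadherins Dsc3 (-2.89) and Dsc2 (-2.01), the P-cadherin gene Cdh3 (-2.10), Nectin1 (-1.40), Cldn8 (-3.06) and Fn1 (-1.33). In mTEC4, Elf3 (-3.86), Tjp3 (-2.74), Spint1 (-1.65), Pkp1 (-2.63) and Pkp2 (-3.17) were lower, and Cldn8 was higher (3.21). In mTEC1, Cldn13 (4.14), Nectin1 (1.18) and the desmoplakin gene Dsp (adjusted p = 0.0366) were higher, and the endothelial genes Cldn5 (-3.16) and Cdh5 (-3.80) were lower. All of these passed limma's adjusted threshold. In counts, 3 of 20 tight junction genes were higher and 0 lower in mTEC2, and 2 of 12 desmosome genes higher and 3 lower. Of 14 genes of Rab11 recycling 0 passed in any of the 3 comparisons. Over the 3, 5 of their 42 unadjusted limma p were under 0.05, with no share of all genes counted.

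Marker sums of cortical TEC and tuft cells, which are epithelial, and of endothelium and mesenchyme differed between the day 6 populations. The cortical sum was 16377 to 21280 CPM in mTEC1, 5432 to 9700 CPM in mTEC4 and 2113 to 3711 CPM in mTEC2. It was 13063 to 23296 CPM in the 6-week Prss16 libraries. Prss16 was 0.586% and 0.740% of UMIs in mTEC1 and 0.354% and 0.240% in mTEC4, above the 0.2% threshold used at 6 weeks. In mTEC2 it was 0.124% and 0.0251%. The medullary sum was 1935 to 2131 CPM in mTEC1 and at most 1316 CPM in the other populations. Summed tuft cell markers were 3482 to 5545 CPM in mTEC2 and at most 167 CPM in the other populations, where Chat was at 0. Summed endothelial markers were 1281 to 1838 CPM in mTEC4, 785 to 3419 CPM in mTEC2 and 168 to 179 CPM in mTEC1, and summed mesenchymal markers were 1786 to 3506 CPM in mTEC4 and 628 to 1225 CPM in the other 2. Their part in the differences of the 6 genes was not tested.

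Against the 4 embryonic libraries, the 6 day 6 libraries were higher in Cldn3 (2.86 ± 0.33, n = 6 and 4; limma adjusted p = 0.000264), Cldn4 (2.44 ± 0.36, adjusted p = 0.00128), Cldn7 (1.84 ± 0.28, adjusted p = 0.00160) and Rab25 (1.52 ± 0.37, adjusted p = 0.0195). These are 4 of the 6 genes, where 10.2% of all genes rose and 5.79% fell (16% in all). The libraries of the 2 ages overlapped for each of the 4 genes, as mTEC4 libraries reached down into the embryonic range. For Cldn7 an mTEC1 library, at 82.4 CPM, also lay below the highest E17 library, at 104 CPM. The Rab25 call was lost without mTEC1 replicate 1 (adjusted p = 0.0622) and without any 1 embryonic library (0.0693 to 0.107), with a pseudocount of 0.5 (0.0604) and in edgeR (0.154). Epcam differed by 0.05 ± 0.18 (adjusted p = 0.889) and Cdh1 by -0.51 ± 0.20 (adjusted p = 0.120).

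Other epithelial junction genes rose from embryo to day 6 as well: F11r (1.99 ± 0.25), Tjp3 (2.14), Spint2 (0.92), the tetraspanin Cd9 (1.51), the vesicle motor gene Myo5b (2.23), which works with Rab11 proteins, Nectin2 (1.44), Cldn15 (2.09) and the regulator Klf4 (2.42). Those that fell included the polarity kinase gene Prkci (-0.71), Nectin1 (-1.25), Cdh3 (adjusted p = 0.00708), the desmosomal genes Perp (-1.17), Dsc2 (-1.51) and Dsp (-1.01), and the regulators Esrp1 (-0.91) and Trp63 (-1.90). Among repressors of Cdh1 and mesenchymal genes, 3 of 7 rose, among them Snai1 (adjusted p = 0.00382) and Vim (2.23), and 2 fell, Fn1 at -2.33 and Snai2 at -2.25. Cldn5 (6.52), which marks endothelium, rose beside 8 of 8 endothelial markers, Cdh5 (4.66) among them, and 11 of 11 thymocyte markers. The mesenchymal markers Dcn, Col1a2, Col3a1 and Pdgfrb and the myeloid markers Tyrobp, Lyz2, Fcer1g and Csf1r also rose, and Lum, Adgre1 and Itgax did not pass. Summed endothelial markers were 168 to 3419 CPM at day 6 and 8.81 to 45.7 CPM in the embryo. The mesenchymal sum was 628 to 3506 CPM against 27.2 to 228 CPM. The myeloid sum was 705 to 883 CPM against 13.9 to 264 CPM. Among epithelial markers, the cortical sum was 2113 to 21280 CPM at day 6 (2113 to 3711 CPM in mTEC2) against 10116 to 12915 CPM. The tuft cell sum was 72.6 to 5545 CPM at day 6 (3482 to 5545 CPM in mTEC2) against 5.77 to 23.8 CPM. The part of these markers in the differences was not tested.

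**Figure D3:**
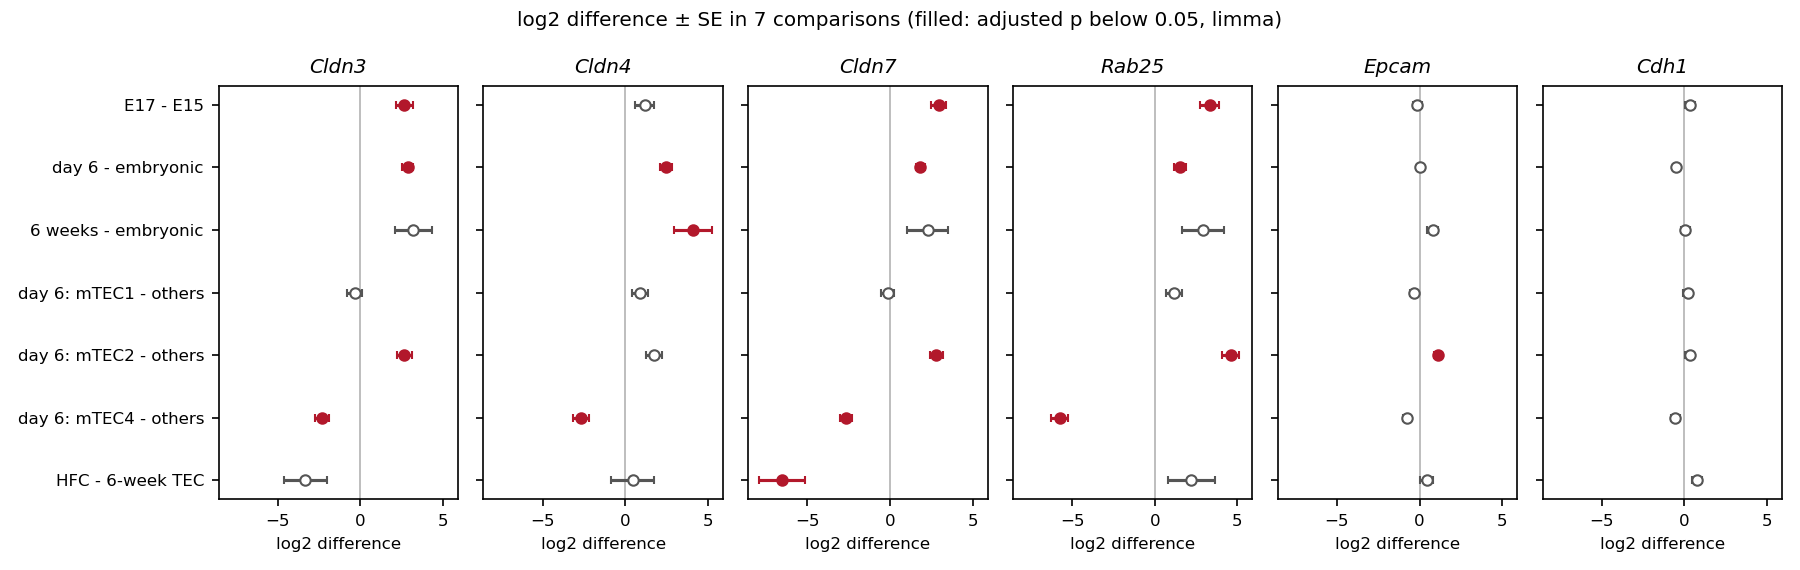
Difference of each gene on the log2 scale, with its standard error, in 7 comparisons named at the left as first minus second group; filled points passed limma's adjusted threshold of 0.05. The claudins and Rab25 hold 16 of the filled points and Epcam 1, at day 6 in mTEC2.

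Taking the 20 libraries of 6 weeks by their titles, each of which mixes libraries of several markers, Cldn4 was higher than in embryonic TEC by 4.10 ± 1.15 (n = 20 and 4; limma adjusted p = 0.0215). It was 3.55 to 699 CPM at 6 weeks and 3.20 to 11.9 CPM in the embryo, and the groups overlapped through the Prss16 libraries. Prss16 was 0.398% to 0.570% of UMIs in the 4 embryonic libraries, above the threshold used for it at 6 weeks. The cortical sum was 10116 to 12915 CPM in the embryo and 13063 to 23296 CPM in the 6-week Prss16 libraries. Its median over the 20 libraries of 6 weeks was 1373 CPM. The part of the cortical genes in the differences from the embryo was not tested. Cldn4 was 1 of the 6 genes, against 6.58% of all genes that were higher (5.55% were lower and 12.1% passed in all). The call was lost without any 1 embryonic library (adjusted p 0.0904 to 0.113). The others did not pass in this fit: Cldn3 differed by 3.20 ± 1.12 (adjusted p = 0.0643), Rab25 by 2.90 ± 1.27 (0.142), Cldn7 by 2.28 ± 1.24 (0.251), Epcam by 0.80 ± 0.34 (0.128) and Cdh1 by 0.06 ± 0.29 (0.915). Over 9 other settings of the fit, Cldn3 passed as higher in 3 and Rab25 in 2. Cldn7 and Epcam passed in 1, DESeq2 (adjusted p = 0.00198 and 0.0454), and Cdh1 in none. Of 7 genes listed around Epcam and the matriptase system, 5 were higher at 6 weeks, among them Spint1 at 1.73 ± 0.29 (limma adjusted p = 0.000343), Prss8, a membrane protease, at 1.68 and Cd9 at 1.26.

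Also higher at 6 weeks than in the embryo were 4 of 15 epithelial regulators (Klf4 at 4.85, Grhl1 at 2.01, Klf5 at 2.90 and Ehf at 2.80), 3 of 21 tight junction genes (F11r at 2.66, Marveld3 at 2.36 and Jam2 at 1.89), Cldn1 (2.67), Nectin4 (3.54), Afdn, an adherens junction scaffold (1.04), Myo5b (3.02), and the desmosomal genes Pkp1 (2.31) and Ppl (3.03). Dsp (-1.09), Fn1 (-5.08) and the repressor gene Twist2 (-2.33) were lower. The median difference of all genes was 0.14.

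In HFC, Cldn7 had 0 UMIs in each of the 3 libraries, which allows at most 1.63 CPM over the group, and Rab25 and Cldn4 were present. At 6 weeks TEC had a mean of 365 CPM ± 298 (SD, n = 20) of Cldn7, at least 224-fold higher, with the lowest library at 1.71 CPM. The fitted difference of HFC minus 6-week TEC was -6.52 ± 1.40 (n = 3 and 20; limma adjusted p = 0.00166). The groups did not overlap, but that lowest library, titled 196 mTEC1, held 1 UMI, under its own 3-UMI limit of 5.14 CPM. The limits of the single HFC libraries were 4.42 to 5.76 CPM. For Cldn7, HFC and the lowest Prss16 libraries thus cannot be told apart. This 1 of 6 genes passed lower, against 16.9% of 13743 genes (4.14% were higher and 21% passed in all). The difference stayed past the threshold without any 1 of the 23 libraries (adjusted p 0.000385 to 0.0153). As each 6-week title mixes libraries of several markers, SE and p-values against 6-week TEC also hold the spread between marker sets. The median of all genes lay at -0.78 in this comparison and at -0.44 under median of ratios scaling, so the other differences are to be read against that shift. With that scaling 1097 genes were higher and 1531 lower, against 569 and 2317 in the fit reported here.

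Rab25 was 629.7, 429 and 526 CPM in HFC, above every Aire, Pth, Krt5 and Prss16 library and below every Trpm5 library. The difference from 6-week TEC was 2.21 ± 1.42 (n = 3 and 20; limma adjusted p = 0.268). Cldn4 was 213, 151 and 175 CPM in HFC, above every Krt5 and Prss16 library and below every Aire, Pth and Trpm5 library, with a difference of 0.46 ± 1.29 (adjusted p = 0.810) that turned to -0.02 in DESeq2. Cldn3 was 51.8, 6.24 and 2.94 CPM, with 1 library above the other 2, and missed the threshold (-3.34 ± 1.31, adjusted p = 0.0717), which it passed without the Prss16 library titled 196 mTEC2 (0.0346) or 196 mTEC3 (0.0164) and in DESeq2 (0.0224).

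Epcam was 301, 544 and 365 CPM in HFC (0.44 ± 0.39 against 6-week TEC, n = 3 and 20; limma adjusted p = 0.424), inside the range of the thymic libraries. In edgeR the Epcam difference was 1.05 and passed (adjusted p = 0.0365), and it was 0.98 with median of ratios scaling (0.0747) and 0.90 in DESeq2 (0.0598). Cdh1 was 451, 418 and 347 CPM, in the range of the Krt5 libraries and above the other 16 libraries of 6 weeks. Its difference of 0.77 ± 0.32 (adjusted p = 0.0929) did not pass, but did with median of ratios scaling (1.31, adjusted p = 0.00267), in edgeR (1.39, 0.00176) and in DESeq2 (1.26, 0.000242).

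**Figure D4:**
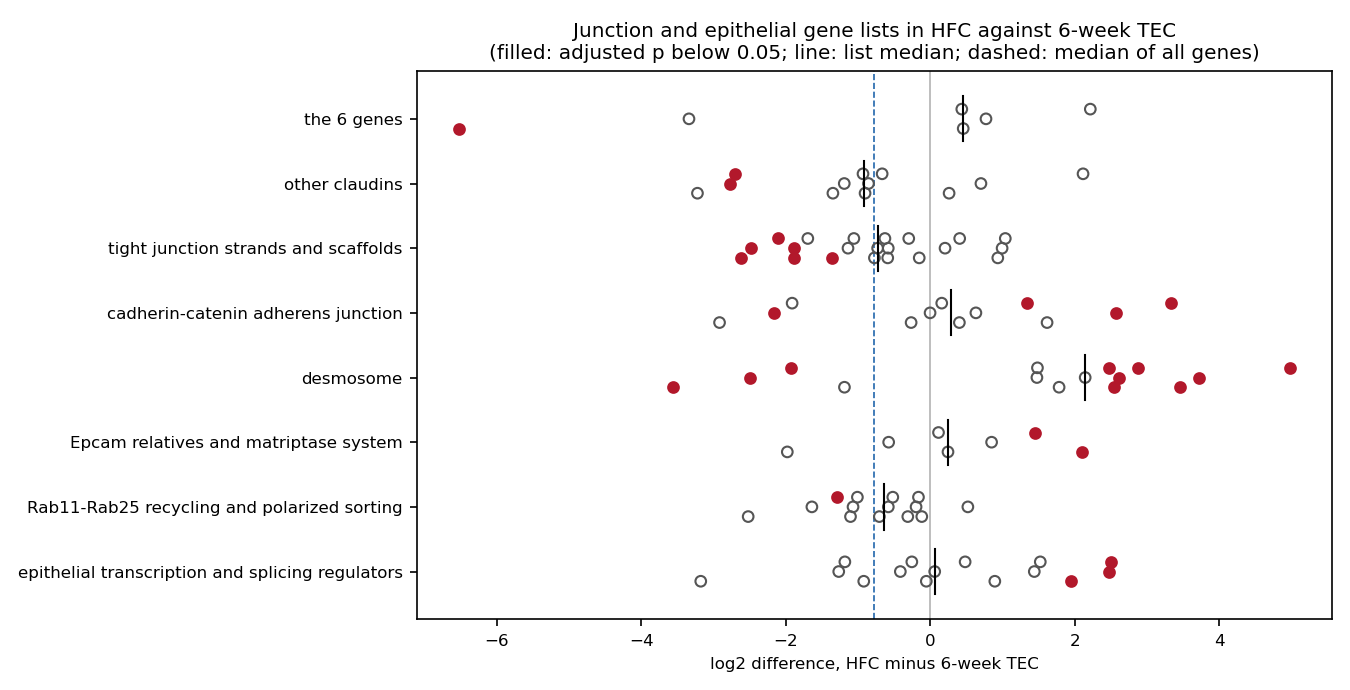
Difference of HFC minus 6-week TEC on the log2 scale for the 6 genes and for each list of related genes, 1 point per gene, filled where limma's adjusted p was below 0.05; black lines are list medians and the dashed line is the median of all genes at -0.78. The desmosome list has its median at 2.14 and 7 genes past the threshold to the right, and the tight junction list has 6 to the left and 0 to the right.

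Counts of the other junction genes in HFC are to be read against the 4.14% of all genes that were higher and the 16.9% that were lower, and differences between lists were not tested. Of 15 desmosome genes, 7 were higher and 3 lower in HFC (list median 2.14), led by the plakophilin gene Pkp3 (2.54 ± 0.23, limma adjusted p = 3.47e-08), the desmosomal cadherin gene Dsg3 (4.98), Perp (2.87) and Dsp (2.61). Dsp was 1739 to 2128 CPM in HFC and 102 to 510.0 CPM at 6 weeks. Of 21 tight junction genes 0 were higher and 6 lower (median -0.73, close to that of all genes), among them Magi3 (-2.11), Cgnl1 (-2.48), Pard6b (-1.89) and Jam3 (-2.62), and of 12 other claudins Cldn9 (-2.70) and Cldn5 (-2.77) were lower. Cldn1, at 92.0 to 165 CPM in HFC and 0 to 143 CPM at 6 weeks, did not pass.

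Of 12 adherens junction genes 3 were higher in HFC, Afdn (2.57), the beta-catenin gene Ctnnb1 (1.33) and Nectin4 (3.33), and Nectin3 (-2.16) was lower. Of 7 genes listed around Epcam and the matriptase system 2 were higher, among them Cd9 (1.45), and so were the regulators Grhl1 (1.95), Esrp2 (2.49) and Ovol1 (2.47) of 15. Cdc42 (-1.29) was the only 1 of 14 Rab11 and sorting genes to pass, and Vim (-3.63) the only 1 of 7 repressors and mesenchymal genes. Of 10 hair follicle markers 9 were higher in HFC, with sums of 53194 to 78311 CPM, and 3 of 10 cornified markers were higher. Summed tuft cell markers were 3.84 to 20.6 CPM, with Trpm5, Il25, Chat and Gnat3 at 0, beside the Rab25 level of those libraries.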

How the data were processed

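Bulk MARS-seq libraries of 33 samples were read from 1 deposited table. The planned design assumed normalized UMIs, but the table holds signal values for 15273 genes that the authors made and deposited, with each library summing to 100, so a value is a percent of UMIs. Per the submitters' processing notes the tools were HTSeq, STAR 2.4.2a, DESeq2, cutadapt and bcl2fastq and the build mm10, with no role or order given. All values were whole multiples of 1 UMI (0 off by more than 0.01), which gave totals of 98670 to 1732688 UMIs. No column lacked a sample.

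Shares were scaled to the median total of 570253 UMIs and log2(value + 1) was taken, which understates changes of low genes. A gene entered a fit when it had at least 5 in at least 2 of its libraries, and limma 3.58.1 gave the test (R 4.3.3; intensity trend, two-sided, Benjamini-Hochberg adjusted p below 0.05). The 6 genes passed this filter in each of the 7 comparisons. Embryonic and day 6 libraries were fitted together, and groups followed the titles. Each fit was also run on simulated counts with 1 spread for all genes. Unchanged genes had the same mean in every group there, unlike the mixed 6-week titles, so that run supports no call. The recovered UMIs were also tested with edgeR 4.0.16 and DESeq2 1.42.0, which called 2844 and 3961 genes for HFC against 6-week TEC.

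The 6 genes and all lists (8 of junction, trafficking and regulatory genes, 9 of cell type markers) were chosen with earlier results of these data known. List genes named in a comparison are up to 4 past the threshold with the smallest adjusted p. Those named for 6-week sets that do not overlap, those named by unadjusted p and Cldn1 in HFC were chosen after their values were seen. Genes closest in pattern leave out predicted genes. Python 3.11.15, pandas 2.3.3, scipy 1.17.1 and numpy 2.4.6 served the rest, and figures were drawn with matplotlib 3.10.9. Some list genes are counted but not reported here by name.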

Additional observations from a re-analysis of the deposited data

How the results depend on the processing

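Calls were recounted with edgeR, DESeq2, robust moderation, pseudocounts of 5 and 0.5, filters set at a mean of 10 or dropped, scaling by median of ratios, a replicate block, only the compared groups, the 6-week libraries taken as 1 group, and each library left out. Of the 6 genes, HFC against 6-week TEC called 1, but 2 with median of ratios scaling and 3 in edgeR and DESeq2. The 6-week against embryonic comparison called 1, but 3 in edgeR, 5 in DESeq2 and 2 with the 6-week libraries as 1 group. The day 6 mTEC4 comparison called 4, but 1 with the compared groups alone. Over all genes, E17 against E15 called 88, but 167 in edgeR, 245 in DESeq2 and 505 with the compared groups alone. With those groups alone the day 6 comparisons of mTEC1, mTEC2 and mTEC4 called 24, 163 and 6 in place of 361, 905 and 320. The mTEC4 comparison also called 190 with the filter at a mean of 10, 150 in edgeR and 205 with the replicate block. At 6 weeks against the embryo 1665 became 3281 in edgeR and 4271 in DESeq2. Cldn4 fell below the filter with E15 and E17 alone and has no value there. The cause of these shifts was not tested.

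The labels do not say whether same-numbered libraries share an origin. Their deviations correlated at 0.01 between E15 and E17 and at -0.01 to 0.04 between the day 6 groups. Between embryonic and day 6 groups the correlations were -0.19 to 0.02, lowest for E15 with day 6 mTEC2. With 2 libraries per group, these values cannot show whether an origin was shared. With the replicate block E17 against E15 called 1 of the 6 genes, Cldn7, in place of 3 (adjusted p = 0.0654 for Cldn3 and 0.0504 for Rab25), and no other call of the 6 genes changed in the 4 comparisons fitted with it.

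Without 1 library, calls over all genes were 1547 to 3381 for HFC, 5 to 16 for E17 against E15, 811 to 3049 for day 6 against the embryo, 0 to 1745, 487 to 2687 and 72 to 1623 for mTEC1, mTEC2 and mTEC4, and 703 to 1944 for 6 weeks against the embryo. Of the 6 genes these fits called, in the same order, 1 to 2, 0, 3 to 5, 0, 3 to 4, 2 to 5 and 0 to 3. A lone library was then assumed to vary like the others.

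Signs changed only in differences that did not pass. Cldn4 in HFC was -0.021 in DESeq2. Epcam at E17 ran from -0.31 to 0.039 without 1 library, the highest without E17 replicate 1. Epcam at day 6 against the embryo was -0.063 in edgeR and ran from -0.039 (without E17 replicate 1) to 0.14, with -0.017 without mTEC1 replicate 1. Cldn7 in mTEC1 ran from -0.54 to 0.25, positive without mTEC1 replicate 2 or mTEC2 replicate 1 (0.097). Cdh1 in mTEC2 ran from -0.028 (without mTEC2 replicate 1) to 0.69. Cdh1 at 6 weeks against the embryo was -0.0083 with median of ratios scaling and -0.094 in edgeR and ran from -0.067 (without E15 replicate 1) to 0.19, with -0.0040 without the library titled 189 mTEC1. Depth limits Cldn3, Cldn4 and Rab25 at E15, each at a few CPM.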
